A study of Mus musculus with 3 samples.

Results

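The bins described here are the autosomal 10 kb bins of the mouse genome for which the deposited 5-hydroxymethylcytosine (5hmC) level was exactly 0 in each of 3 cerebellum libraries. They numbered 377 of 239486 autosomal bins listed, or 0.157%. The deposited values chose these bins, so their zeros are a description and not a finding, and what follows is about where the bins lie, what they hold and what surrounds them. The libraries were DDD-seq of cerebellum under chronic sleep deprivation, ACE-seq of normal or control cerebellum, and DDD-seq of normal or control cerebellum, with 1 library per group. The title of the ACE-seq library does not call the tissue normal, but its treatment label does. DDD-seq reads as 5hmC the cytosines that a deaminase acting on double-stranded DNA leaves intact after glycosylation, and ACE-seq is an APOBEC-coupled method with the same aim. The labels give all 3 libraries the same preparation with the deaminase domain SsdAcat, so the deaminase of the ACE-seq library is not given apart. The sources used here state no strain, age, genotype or number of animals. The value of a bin was a fraction, given here in percent, and the number of reads behind it is unknown. No statistical test was possible with 1 library per group, and neighbouring bins are not independent of each other.

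TET enzymes form 5hmC by oxidising 5-methylcytosine, and the mark is abundant in neurons, where it is enriched over gene bodies. Mammalian genomes also hold families of genes that arose by tandem duplication, such as the vomeronasal receptors Vmn1r and Vmn2r, which detect pheromones. The youngest copies of such families can be nearly identical in sequence. A short read from an identical stretch cannot be assigned to 1 copy, and aligners differ in what they do with it.

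The sequences below come from the promoter windows of genes that start in these bins, and in 1 case from the closest match elsewhere. They were picked as examples of close sharing with other genes and do not stand for all windows. Of 49 windows that start in the set, 31 had an identical partner, but for 14 the closest window was less than 80% identical. Each is the stretch of 250 bases before the annotated start, 5′ to 3′, from RefSeq on GRCm38.p6. The first pair compares Vmn1r240 (chr7:20122580-20122829, minus strand) with Vmn1r243 (chr7:20334066-20334315, minus strand). The stretches of these 2 vomeronasal receptor genes were the same at 242 of 250 positions, and capitals mark the 8 positions that differ.
Vmn1r240: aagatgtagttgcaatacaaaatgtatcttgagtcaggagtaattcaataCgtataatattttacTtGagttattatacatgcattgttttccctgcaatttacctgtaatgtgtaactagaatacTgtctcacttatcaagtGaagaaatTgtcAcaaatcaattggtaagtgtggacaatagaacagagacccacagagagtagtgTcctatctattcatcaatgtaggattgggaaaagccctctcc
Vmn1r243: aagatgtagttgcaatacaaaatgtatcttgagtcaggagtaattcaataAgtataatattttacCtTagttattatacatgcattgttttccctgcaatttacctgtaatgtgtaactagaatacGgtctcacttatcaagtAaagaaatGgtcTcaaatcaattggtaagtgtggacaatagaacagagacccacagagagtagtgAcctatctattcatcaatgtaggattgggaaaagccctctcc
Each of these stretches recurred without a difference at another gene on the same chromosome. That of Vmn1r240 was repeated before Gm16451 (chr7:22118246-22118495, minus strand), and that of Vmn1r243 before Vmn1r119 (chr7:21012456-21012705, minus strand). The stretch of Vmn1r243 was also repeated before Vmn1r253 on the same chromosome.
The next stretch, of Vmn1r143 (chr7:22189127-22189376, plus strand), was identical to that of Vmn1r95 (chr7:20193460-20193709, plus strand).
Vmn1r143: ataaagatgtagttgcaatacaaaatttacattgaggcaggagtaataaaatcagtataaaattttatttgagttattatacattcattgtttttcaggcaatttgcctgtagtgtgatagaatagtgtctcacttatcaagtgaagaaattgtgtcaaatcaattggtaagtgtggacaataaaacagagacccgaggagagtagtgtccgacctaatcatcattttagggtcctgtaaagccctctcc
The stretch of Pramel37 (chr5:94070546-94070795, minus strand), of the PRAME-like family, was identical to that of Pramel50 (chr5:95736174-95736423, minus strand).
Pramel37: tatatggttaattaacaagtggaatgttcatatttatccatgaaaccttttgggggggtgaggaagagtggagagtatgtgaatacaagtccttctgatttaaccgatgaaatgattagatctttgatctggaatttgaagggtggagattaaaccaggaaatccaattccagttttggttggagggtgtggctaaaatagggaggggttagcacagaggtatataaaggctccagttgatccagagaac
The predicted genes Gm3043 (chr14:3688538-3688787, plus strand) and Gm8271 (chr14:5185543-5185792, plus strand) shared 249 of 250 positions, and the position that differs is in capitals.
Gm3043: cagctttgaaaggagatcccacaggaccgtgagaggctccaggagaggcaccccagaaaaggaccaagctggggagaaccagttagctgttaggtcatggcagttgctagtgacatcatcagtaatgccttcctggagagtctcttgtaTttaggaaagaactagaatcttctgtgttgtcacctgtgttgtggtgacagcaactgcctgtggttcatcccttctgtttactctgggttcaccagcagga
Gm8271: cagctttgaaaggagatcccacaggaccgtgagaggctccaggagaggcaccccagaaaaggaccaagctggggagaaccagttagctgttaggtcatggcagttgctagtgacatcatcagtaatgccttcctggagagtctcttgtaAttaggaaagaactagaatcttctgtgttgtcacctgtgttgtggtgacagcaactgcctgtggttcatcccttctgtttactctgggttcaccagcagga
The bins of Vmn1r240, Gm16451, Vmn1r243, Vmn1r253, Vmn1r143, Vmn1r95, Pramel37, Pramel50 and Gm3043 were all at 0 in the 3 libraries. The bin of Vmn1r119 was not, with 1.79% in the sleep-deprived library, 0.962% by ACE-seq and 1.07% in the DDD-seq control. The bin of Gm8271 had 0 in the sleep-deprived library, 0 by ACE-seq and 6.67% in the DDD-seq control. Bins that share a promoter sequence therefore did not always share a zero.

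A value of 0 was rare in each library. It was listed for 981 autosomal bins (0.41%) in the sleep-deprived library, for 1728 bins (0.722%) in the ACE-seq library and for 1574 bins (0.657%) in the DDD-seq control. The 377 bins at 0 in all 3 libraries made up 38.4% of the zero bins of the sleep-deprived library, 21.8% of those of the ACE-seq library and 24.0% of those of the DDD-seq control. A further 499 bins were at 0 in 2 libraries and 2154 in 1 library. The sleep-deprived library had the fewest zero bins that no other library shared, 329 against 986 in the ACE-seq library and 839 in the DDD-seq control. Of the 601 bins at 0 in both control libraries, 62.7% were also at 0 in the sleep-deprived library. Where the sleep-deprived library was above 0 in such a bin (210 bins), its level ranged from 0.284% to 25% with a median of 1.67%, against a median of 1.38% over its autosomal bins. In the same way, 104 bins were above 0 in the DDD-seq control alone, with values from 0.386% to 100%, and 103 in the ACE-seq library alone, from 0.469% to 100%. Bins that just missed the set thus included some of the highest values of the table.

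There was a gap between 0 and the lowest level listed. The lowest value above 0 on an autosome was 0.0969% in the sleep-deprived library, 0.0993% by ACE-seq and 0.0916% in the DDD-seq control. Among the bins above 0 in at least 1 library and empty in none, the one whose highest value was lowest lay on chromosome 15 (67580001 to 67590000), with 0.230%, 0.235% and 0.219% in the same order. The next lay on chromosome 12 (60480001 to 60490000), with 0.209%, 0 and 0.250%. No bin of the set was near these values, since all its values are 0.

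The bins were unevenly spread over the autosomes. Chromosome 7 held 127 of them, or 33.7%, although it holds 5.92% of autosomal bins, and chromosome 14 held 72, or 19.1%, with 5.05% of autosomal bins. Chromosome 4 held 46, chromosome 2 34, chromosome 5 25 and chromosome 6 21. These 6 chromosomes together held 86.2% of the set and 37.0% of autosomal bins. Chromosome 1, the longest, held 1 bin, chromosome 18 held 1, and chromosome 15 held 0 of its 10069 bins. Bins within 5 Mb of the first listed bin of a chromosome, its centromeric end, made up 17.2% of the set (65 bins) and 3.93% of other autosomal bins. Of these 65 bins, 26 lay at 5140001 to 5800000 and 21 at 3300001 to 3810000 on chromosome 14. The share therefore rests mostly on chromosome 14 and does not describe chromosome ends in general.

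**Figure D1:**
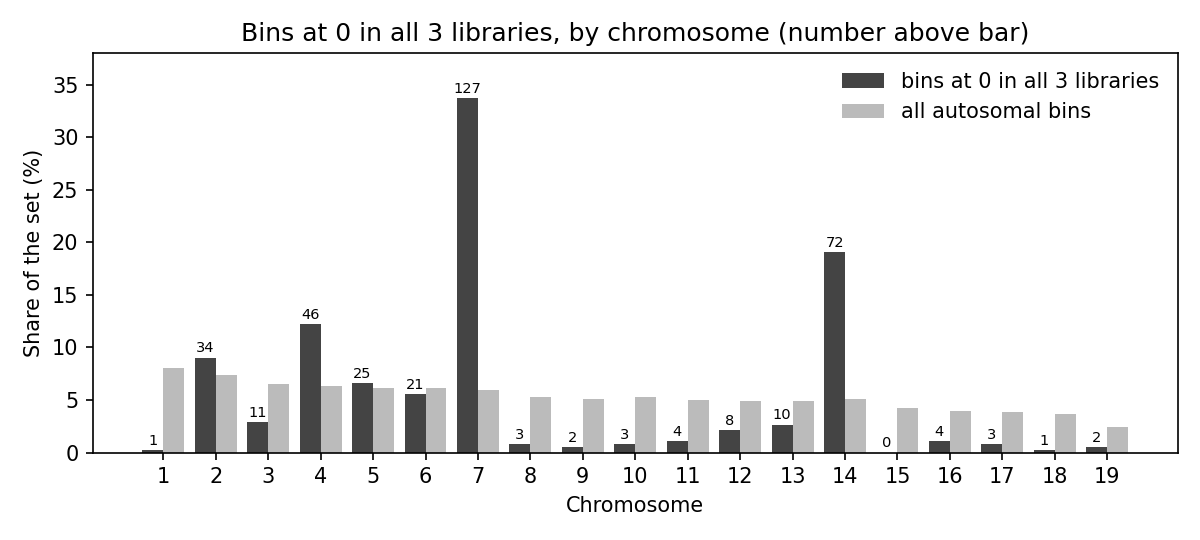
Share of the 377 bins at 0 in all 3 libraries (dark bars, number above each) and of all 239486 autosomal bins (light bars) that lies on each autosome, in percent. Chromosomes 7 and 14 together hold 52.8% of the set and 11% of autosomal bins.

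Most of the bins lay near another one. They formed 268 runs of consecutive bins, of which 195 were single bins, 48 had 2 bins, 18 had 3, 4 had 4, 2 had 5 and 1 had 6. A total of 182 bins (48.3%) were in a run of at least 2. When bins at most 500 kb apart were joined, a distance chosen after the positions were seen, there were 75 clusters, and 342 bins (90.7%) had another of the set in their cluster. The 15 clusters with at least 8 such bins held 261 of them (69.2%). These clusters spanned 10.4 Mb and 830 listed bins, 0.347% of autosomal bins, and 31.4% of their listed bins were at 0 in all 3 libraries.

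The longest run covered 60 kb of chromosome 2 (100640001 to 100700000) and overlapped no annotated gene. A run of 30 kb (100470001 to 100500000) lay in the same cluster, where 13 of 25 listed bins were at 0 in all libraries and 1 gene was annotated. The bins within 50 kb of the 60 kb run that were not in the set had mean levels of 0.699% in the sleep-deprived library, 1.27% by ACE-seq and 1.34% in the DDD-seq control. A cluster without gene annotation at its zero bins also lay on chromosome 4 (121750001 to 122440000). It held runs of 40 kb (121830001 to 121870000) and 30 kb (121750001 to 121780000), 17 bins at 0 in all libraries and 22 above 0 in all of them. On chromosome 14 a run of 50 kb (3430001 to 3480000) covered the predicted genes Gm10408 and Gm10409, and a run of 40 kb (5370001 to 5410000) covered Gm3500, Gm3348 and Gm41087. On chromosome 7, 50 kb (22910001 to 22960000) held the pseudogene Gm4574, and 40 kb (20670001 to 20710000) held Vmn1r111 and Vmn1r-ps71. A run of 40 kb on chromosome 6 (123540001 to 123580000) held the vomeronasal pseudogene Vmn2r-ps32, and one of 30 kb on chromosome 5 (94060001 to 94090000) held Pramel37 and Gm6351.

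The cluster with most bins of the set lay at 21450001 to 23090000 on chromosome 7. Of its 153 listed bins, 47 were at 0 in all libraries, 78 in 1 or 2 libraries, and 27 were above 0 in all 3. A 0 was listed there for 89 bins in the sleep-deprived library, 82 by ACE-seq and 90 in the DDD-seq control. It overlapped 66 annotated genes or pseudogenes, 35 of them with Vmn1r symbols and 31 with the symbols of predicted genes. A second cluster on chromosome 7 (20110001 to 20740000) had 28 of 62 listed bins in the set and 18 Vmn1r symbols among 30. Vmn2r symbols stood in another cluster of chromosome 7 (8870001 to 9850000, 17 of 85 bins, 10 of 27 symbols) and in the cluster on chromosome 6 (123400001 to 123580000), where 11 of 15 listed bins were at 0 in all libraries and 0 bins were above 0 in all of them.

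Both large clusters of chromosome 14 held only symbols of the kind given to predicted genes (Gm, LOC or Rik), whatever the gene type. These were 27 of 27 symbols at 5140001 to 5800000 (26 of 66 bins) and 22 of 22 symbols at 3300001 to 3810000 (21 of 48 bins). The cluster on chromosome 2 at 175180001 to 176990000 covered zinc finger genes, among them Zfp965 and Zfp973, and 103 of its 181 positions of 10 kb were not listed in the table. A cluster on chromosome 4 (41910001 to 42700000, 17 of 47 bins) held Ccl21b, which encodes a chemokine that guides lymphocytes to lymph nodes, and Gm13304, which carries the names of Ccl21 copies among its synonyms. On chromosome 7 (105850001 to 106200000) 8 of 29 bins were in the set, 3 of them over Gvin1, an interferon-inducible large GTPase gene. On chromosome 14 (52890001 to 53530000) 7 of 64 bins were, in a region of T cell receptor alpha V segments.

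**Figure D2:**
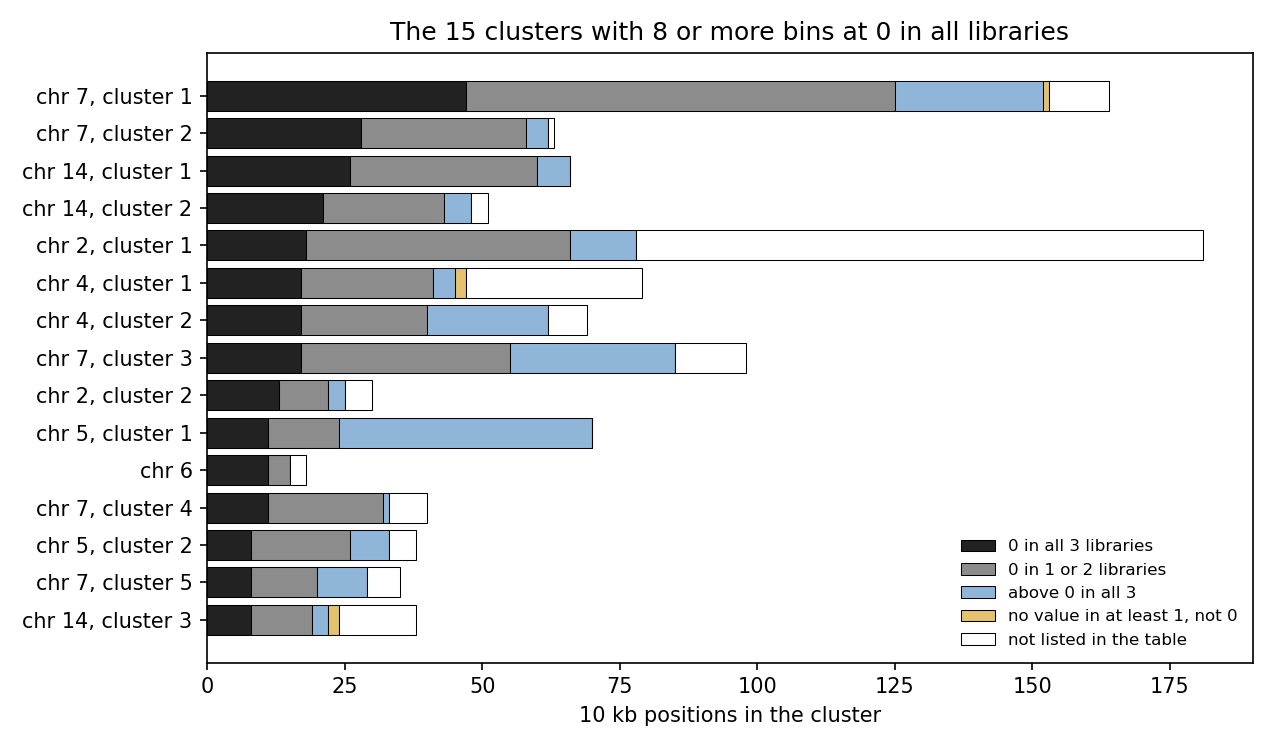
Number of 10 kb positions in each of the 15 clusters with at least 8 bins at 0 in all 3 libraries, in descending order of that number, divided by the values listed. The uppermost bar is the cluster at 21450001 to 23090000 on chromosome 7, with 47 bins at 0 in all libraries, 78 at 0 in 1 or 2, and 27 above 0 in all 3.

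Fewer bins of the set than of the rest overlapped a protein-coding gene, 111 (29.4%) against 46.7% of other autosomal bins. Pseudogenes were more frequent, in 85 bins (22.5%) against 4.73%, and 74 bins (19.6%) against 3.31% had a pseudogene and no protein-coding gene. V segments of antigen receptors overlapped 6 bins (1.59%) against 0.187%. Long noncoding RNA genes overlapped 36 bins (9.55%) against 13.3%, and 165 bins (43.8%) against 40.6% had no annotated gene. Symbols of predicted genes (Gm, LOC or Rik) stood in 143 bins (37.9%) against 18.3%.

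Protein-coding genes that overlapped the set numbered 90, of which 43 were predicted genes, 15 Vmn1r genes and 7 Vmn2r genes. All listed bins were at 0 in all libraries for 29 of 20538 protein-coding genes (0.141%), and each of these had at most 2 listed bins. Of the 29, 14 were vomeronasal receptor genes and 11 predicted genes. Those with 2 listed bins were Gm10408 and Gm3043 on chromosome 14, Gm10668 on chromosome 7 and Pramel37. Those with 1 listed bin included Fam205a2, Gm13057, Gm13304, Gm14391, Gm16451, Gm4307, Gm6763, Gm8246, Gm8600, Pramel50 and Tmem254b, a transmembrane protein gene. Among longer genes, Gm6351 had 4 of 7 bins in the set, and Gm3317, Gm3373 and Vmn2r36 had 3 of 4 each. Further genes were Gm3050 with 3 of 6 bins, Gvin1 with 3 of 7, Ccl21b with 2 of 6, Gm3500 with 2 of 3, Gm16867 with 2 of 5, Gm4070 with 2 of 7 and Gm31035 with 2 of 10.

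Cntnap2, a cell adhesion gene of neurons on chromosome 6, stood apart from these families. It had 3 of its 225 bins in the set, in 1 run (47140001 to 47170000). The bin before the run had 2.67% in the sleep-deprived library, 1.85% by ACE-seq and 0 in the DDD-seq control, and the bin after it had 1.52%, 1.94% and 2.91% in the same order. Over the remaining bins of Cntnap2 the median was 1.95%, 1.97% and 2.07%. Cntnap2 was not the only gene outside these families, since Drc1, Tshr and Loxl2 also overlapped the set. Unlike the run in Cntnap2, the Loxl2 bin also overlapped Gm27177. It lay in a cluster on chromosome 14 (69370001 to 69630000) where 17 of 26 positions were not listed.

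Gene families were grouped by the part of the symbol before its last number. Vmn1r genes had 15 of 255 bins in the set (5.88%), all on chromosome 7, and Vmn2r genes 10 of 436 (2.29%), against 0.0992% of the bins over all protein-coding genes. PRAME-like genes had 3 of 106 bins, zinc finger genes named Zfp 5 of 1621, and amylase genes, which encode starch-digesting enzymes, 2 of 13. T cell receptor alpha V segments had 6 of 106 bins, and the major urinary protein genes (Mup) 1 of 39. Chemokine genes named Ccl had 2 of 43 bins, genes named Srp 1 of 23 and genes named Tmem 1 of 994. Genes named Cntnap had 3 of 509 bins, all in Cntnap2. Olfactory receptor genes, another large tandem family, had 0 of 1253 bins in the set. A list of 26 families was fixed when the rules were set, without the T cell receptor alpha V segments and the Ccl, Srp, Tmem and Cntnap genes. Of these 26, 6 had at least 1 bin in the set and 2 had no autosomal gene. Taken over all families of at least 5 genes, predicted genes left out, the set had the lower share, with 11.4% of its bins over such a family against 20.4% of other bins. Under another rule, without the minimum of 5 genes, at least 3 genes of 1 family had to lie within 1000 kb. The share was then 11.9% against 2.92%.

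These families also had zeros outside the set. Among Vmn1r bins that have a value and are not in the set, 7.17% were at 0 in the sleep-deprived library, 7.30% by ACE-seq and 7.26% in the DDD-seq control. The corresponding shares were 4.49%, 7.57% and 5.24% for Vmn2r bins, 0.639%, 2.08% and 2.08% for olfactory receptor bins, and 0.151%, 0.294% and 0.255% over all protein-coding genes. With the bins of the set included, Vmn1r bins had medians of 0.943%, 0.878% and 0.954% in the same order, Vmn2r bins 0.963%, 0.952% and 0.951%, and olfactory receptor bins 1.06%, 1.02% and 1.06%. All 3 families lay below the medians over all protein-coding genes, which were 1.48%, 1.45% and 1.49%.

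Promoter sequence was compared because it does not depend on the measured values. RefSeq gave a promoter window of 300 bases (250 before and 50 after the start) for 94 of the 215 genes of any type that overlap the set, and 49 windows of 47 genes started inside it. A window was called fully copied when each of its stretches of 50 bases occurred in the window of another gene at another position, on either strand. Of the 49 windows, 32 were fully copied (65.3%), against 231 of 31294 windows that started in other autosomal bins (0.738%). At least 1 copied stretch was found in 46 of 49 windows (93.9%) and in 6.45% of the others. The 3 windows without a copied stretch were those of Fam205a2, Vmn1r148 and Gm3435. Without chromosome 7, 12 of 25 windows (48%) were fully copied and 23 had a copied stretch. The windows compared are those of the promoter table alone, so copies at genes without a window, or outside promoters, were not counted. The 49 windows can lie in at most 49 of the 377 bins, so most of the set has no promoter sequence in this comparison. Some windows overlap, such as those of Gm33382 and Gm29258, and are not separate places.

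**Figure D3:**
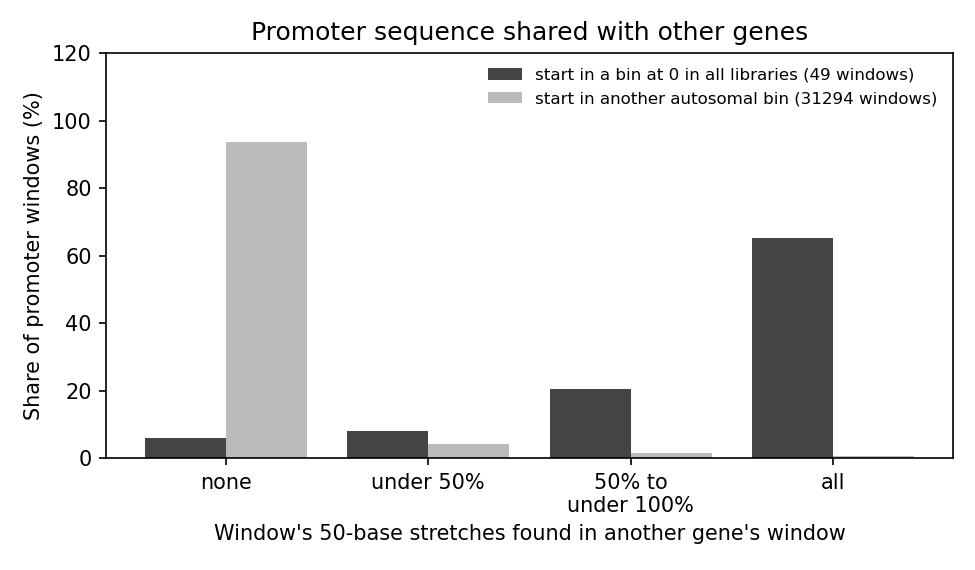
Share of promoter windows (percent) by how much of the window recurred in that of another gene, for windows that start in a bin at 0 in all 3 libraries (49, dark) and in another autosomal bin (31294, light). Fully copied windows make up 65.3% of the dark set and 0.738% of the light set.

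The closest window of another gene, without gaps and in the same orientation, was identical over all 300 bases for 31 of the 49 windows. For 14 windows it was less than 80% identical. In all 31 identical cases the partner lay on the same chromosome. The distance was 1995 kb for 5 windows and 1989 kb for another 5, all on chromosome 7, where it joins the cluster at 20110001 to 20740000 with that at 21450001 to 23090000. It was 352 kb for 5 windows on chromosome 14 and 1665 kb for both PRAME-like genes. Where several windows were identical, only the first listed was kept as partner, so these distances and the following counts depend on that order. The bin of the partner kept was in the set for 9 of the 31 windows and above 0 in all 3 libraries for 9. It was at 0 in some library but not in the set for 13. Of these 13 partner bins, 4 lacked a value in at least 1 library and were at 0 wherever they had one. They were the partners of Gm13304, Vmn1r255, Vmn1r258 and Gm3317. Most of the 9 windows with a partner in the set were counted from both sides of a pair, as were Pramel37 and Pramel50. They are therefore not 9 separate pairs. Windows counted as having a partner above 0 could also have an identical copy in the set. Vmn1r243, with the partner Vmn1r119, was also identical to Vmn1r253. Vmn1r248 and Vmn1r259, both in the set, had the same partner, Vmn1r127. Among the partners above 0, the bin of Vmn1r120, the partner of Vmn1r244, had 0.816% in the sleep-deprived library, 0.556% by ACE-seq and 0.725% in the DDD-seq control. The bin of Gm13040, the partner of Gm13057 at a distance of 15 kb, had 0.719%, 1.01% and 1.61% in the same order.

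The windows in the set also held few CpG sites, the context of most 5hmC. The median number of CG dinucleotides per window was 2 (range 0 to 31), against 7 (range 0 to 67) in the other windows, and 41 of 49 windows (83.7%) had at most 3, against 30.8% of the others. Among bins whose windows held at most 3 CG in all, 26 of 161 bins with a fully copied window were in the set (16.1%), against 2 of 6252 bins without a copied stretch (0.0320%). The windows were not matched on CpG number beyond this limit, CpG content over the whole of a bin was not measured, and its part in the zeros was not tested.

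Bins were also grouped by promoter sequence alone, whatever their 5hmC level. In the 233 bins with a fully copied window, 27.4% of bins with a value were at 0 in the sleep-deprived library, 33.8% by ACE-seq and 32.6% in the DDD-seq control. These shares include 29 bins of the set, which the rule put at 0. In the 22271 bins whose windows held no copied stretch the shares were 0.0674%, 0.162% and 0.180%, with 3 bins of the set. With the bins of the set left out, the shares were 16.5%, 23.5% and 22.0% with a fully copied window and 0.0539%, 0.148% and 0.166% without a copied stretch. Bins with partly copied windows lay between these. Outside the set, 3.82%, 4.05% and 5.23% were at 0 where at least 50% but not all of a window was copied, and 0.347%, 1.74% and 0.867% where less than 50% was. With chromosome 7 left out as well, the shares in bins with a fully copied window were 13.4%, 21.1% and 16.4%. Levels of bins above 0 differed far less. Their median was 1.11%, 1.19% and 1.20% with a fully copied window and 1.31%, 1.29% and 1.32% without a copied stretch. What part the placement of reads from copied sequence has in the zeros was not tested, since no read counts or mapping qualities were used here.

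**Figure D4:**
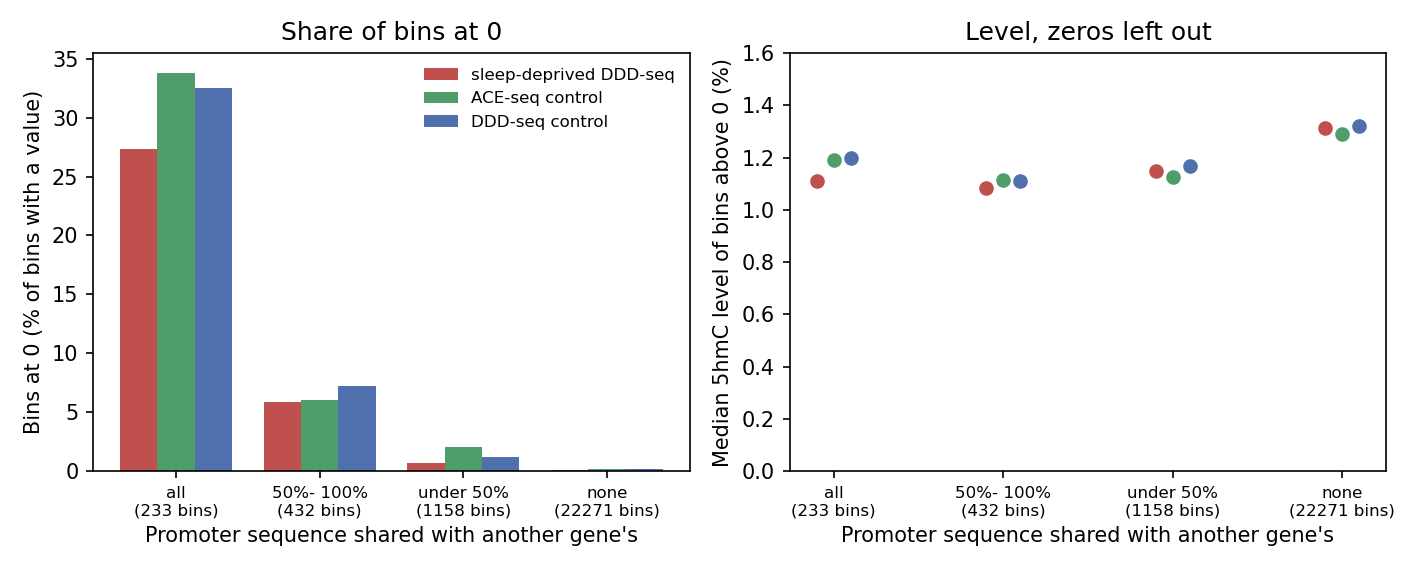
Share of bins at 0 (left, percent of bins with a value) and median 5hmC level of bins above 0 (right, percent) by the share of promoter sequence found at another gene, for each library. Zeros fall to 0.0674% to 0.180% of bins with no copied stretch, against 27.4% to 33.8% with a fully copied window, the bins of the set included.

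The set also bordered on positions without data. A neighbouring position that was not listed or lacked a value in some library stood beside 131 of the bins (34.7%), against 0.201% of other autosomal bins, and within 5 bins of 228 (60.5%), against 0.690%. Bins of the set were never without a value themselves, since the rule asks for a 0. The sources used here do not say why a position is missing from the table.

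Bins around the set had more zeros, slightly lower medians and a far wider spread than the rest of the autosomes. There were 1328 other bins within 50 kb of the set. Of those with a value, 1256 in the sleep-deprived library, 1243 by ACE-seq and 1218 in the DDD-seq control, the share at 0 was 19.3% in the sleep-deprived library, 26.1% by ACE-seq and 23.8% in the DDD-seq control, against 0.152%, 0.432% and 0.381% of more distant bins. Their medians were 0.999%, 0.924% and 0.962%, against 1.38%, 1.35% and 1.39%. Their means, in contrast, were 1.64%, 1.62% and 1.49%, close to the 1.57%, 1.52% and 1.56% of more distant bins, and single bins reached 100% in each library, where more distant bins reached at most 16%, 20% and 20%. The SD over bins was 5.23, 6.13 and 4.85 points, against 0.830, 0.852 and 0.860 points. The share at 0 declined with distance, from 32.4%, 42.8% and 39.7% in bins next to the set to 0.111%, 0.348% and 0.312% beyond 1000 kb on the same chromosomes.

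**Figure D5:**
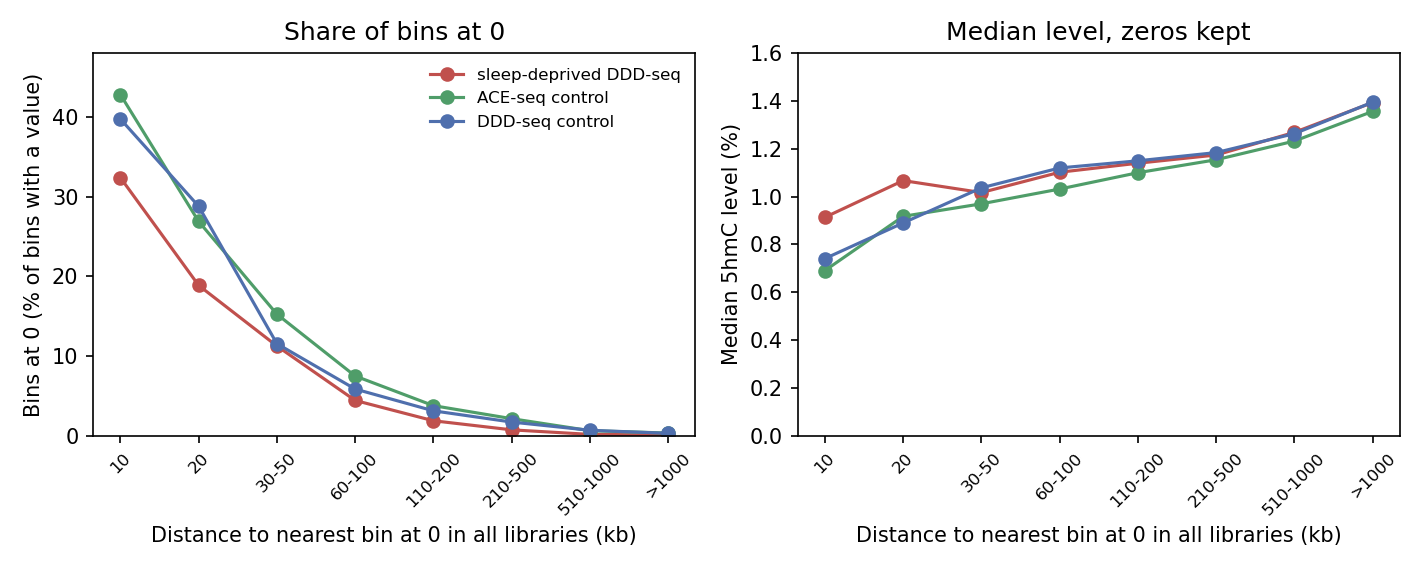
Share of bins at 0 (left, percent of bins with a value) and median 5hmC level with zeros kept (right, percent) by distance to the nearest bin at 0 in all 3 libraries, for each library, on the 18 autosomes that hold such a bin. Next to the set 32.4% to 42.8% of bins are at 0, and beyond 1000 kb 0.111% to 0.348% are.

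Differences between libraries were then taken in these surroundings. Of 1154 bins within 50 kb of the set and with a value in all libraries, the sleep-deprived library was higher in 568 and lower in 532, and equal in 54, with a median difference of 0 points. The ACE-seq library was higher than the DDD-seq control in 524 of them, lower in 528 and equal in 102. The sleep-deprived library was higher than the ACE-seq library in 602, lower in 498 and equal in 54, with a median difference of 0.0498 points, against 0.0510 points in more distant bins. The median absolute difference was 0.549 points for sleep-deprived minus control and 0.569 points for ACE-seq minus DDD-seq control, against 0.332 and 0.365 points in more distant bins. Levels around the set thus varied more between libraries than elsewhere, and with 1 library per group this spread cannot be told apart from a difference between conditions or methods.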

How the data were processed

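5hmC was measured in 3 libraries of mouse cerebellum DNA. The deposited table gives the authors' value as a fraction per 10 kb bin and library, between 0 and 1, without counts or coverage, and fractions were multiplied by 100. Bismark, Trimmomatic and FastQC are the tools in the submitters' processing notes, which also name hg19, a human build. The bins were treated as GRCm38, since the last bin of each autosome ended 1.33 to 132 kb after the last gene of the RefSeq table of GRCm38.p6. Per the file headers, reads were trimmed, aligned with Bismark, sorted and merged. The word "all" in both DDD-seq headers may mean that runs were pooled. Averaging, cytosine context, coverage filter and handling of reads that map to several places are not stated in the sources used here, so depth is unknown and no interval of a level was possible.

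Bins at exactly 0 in all libraries were joined into runs and clusters, overlapped (at least 1 bp) with RefSeq genes, and compared with other autosomal bins as shares. Families, runs and genes were in the main named by fixed rules: the 10 longest runs, the 10 families with most such bins, up to 15 genes with all bins in the set, and the 15 genes with most bins in it. Cntnap2 is among the last, and its run was described after the values were seen. The printed sequences, the promoter partners named, some genes named for clusters, and Drc1, Tshr and Loxl2 were picked outside these rules. The set and the lists were chosen with earlier results of these data known, and the promoter comparisons and the cluster distance were added after the positions were seen. The software was scipy 1.17.1, pandas 2.3.3, numpy 2.4.6 and matplotlib 3.10.9 under Python 3.11.15. The steps that find bins, runs and copied sequence were tested on simulated data.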

Additional observations from a re-analysis of the deposited data

How the results depend on the processing

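No paired analysis was possible because each group has 1 library and the values come from no test. A limit of 0.01% or 0.1% in place of 0 left the set at 377 bins, which says little, since the lowest autosomal values above 0 were 0.0916% to 0.0993%. Counts were compared within 1.5 times, and shares and medians against a 95% binomial margin over bins or windows, which are not independent, so that margin is a yardstick and not an error. Past these margins lay the following. The number of bins was 601 when the sleep-deprived library was not used, against 518 without the DDD-seq control and 511 without the ACE-seq library. The share over protein-coding genes was 18.0% with an overlap of at least 5000 bp and 56.2% with genes of any type, and the share over families was 25.7% with predicted genes counted as a family. The share near a position without data was 60.5% within 5 bins. The median level around the set in the DDD-seq control was 0.845% over 2 bins on each side, 1.05% over 10 bins and 1.20% with zeros left out. The share of fully copied promoter windows was 48% without chromosome 7. In these cases the setting changes which bins, genes or values are counted. The cluster distance, the length of the copied stretch, the family distance and the exclusion of chromosome 7 or of the set from promoter classes were chosen after seeing the data. A zero from few reads cannot be told apart from one over many, because no depth is given.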

Other observations

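Bins at 0 in all 3 libraries were more frequent on the sex chromosomes, which the report does not cover. They numbered 313 of 16246 bins on chromosome X and 2996 of 8667 bins on chromosome Y, against 377 of 239486 on the autosomes.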
